A study of Mus musculus with 18 samples.

Results

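The genes of MHC class I and class II antigen presentation were followed in TA muscle (tibialis anterior, a muscle of the lower leg) of mice with and without tumours. They were all protein-coding genes with a symbol starting H2-, together with B2m, Tap1, Tap2, Tapbp, Nlrc5, Ciita and Cd74, 41 genes in all. Of these, 35 were among the 29433 genes that had a count in at least 1 library, and 27 were among the 16089 genes kept by the filter on low counts and so tested. The 14 members that were not tested reached at most 14 counts in a library, and 6 of them, the H2-M10 genes, had no count in any library.

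The study sequenced poly(A) RNA of TA muscle taken at endpoint from 5 mouse models of cancer cachexia, the muscle and weight loss that accompanies tumours, in 18 libraries of 9 groups with 2 libraries each, labelled as biological replicates. LLC tumour mice were C57BL/6 animals that received LLC cells, a mouse lung carcinoma line, into muscle, and their controls received PBS. KPCML1 tumour mice received 1000 KPCML1 cells and KPC tumour mice 50000 KPC cells orthotopically, and both groups, of C57BL/6 background, were set against the same 2 controls given Matrigel alone. C26 tumour mice were CD2F1 animals that received C26 cells, a mouse colon carcinoma line, under the skin, and their controls received PBS. KPP tumour mice were a C57BL/6 genetic model induced with tamoxifen, and their controls were KPP animals without a tumour. The alleles of the KPP model, whether its controls received tamoxifen, which muscle received the LLC cells, and the age and sex of the mice are not given in the labels. The KPCML1 and KPC groups differ in the cells and in their number at once, so these cannot be told apart.

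Class I molecules are a heavy chain paired with B2m, the shared light chain, and display peptides of the cell's own proteins to CD8 T cells. The peptides are cut by the proteasome, carried into the endoplasmic reticulum by the Tap1 and Tap2 transporter, and loaded with the help of Tapbp (tapasin). Class II molecules are pairs of an alpha and a beta chain on antigen-presenting cells such as macrophages, dendritic cells and B cells; Cd74, the invariant chain, escorts them, and H2-DM exchanges the remnant of Cd74 for peptide. Nlrc5 and Ciita are the coactivators of class I and class II genes, and interferon-gamma raises both, in part through the factor Irf1. Resting myofibres are known for low class I levels, and class II in muscle is borne mainly by resident immune cells.

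All but 4 of the members lie on chromosome 17, 37 of 41; B2m is on chromosome 2, Nlrc5 on 8, Ciita on 16 and Cd74 on 18. The stretches that carry the named promoter elements are shown for the heavy chain genes that rose in the LLC model, for their neighbour H2-Q6, for B2m, and for a pair of class II genes that were lower in KPP tumour muscle. They are RefSeq sequence of build GRCm38.p6 (mm10), written along the strand of the gene. Capitals mark the motifs searched.
H2-K1, chr17:34000418-34000468, minus strand: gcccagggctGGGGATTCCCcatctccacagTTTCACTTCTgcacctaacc
H2-D1, chr17:35262913-35262963, plus strand: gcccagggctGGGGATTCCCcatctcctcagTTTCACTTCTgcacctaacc
H2-Q4, chr17:35379433-35379483, plus strand: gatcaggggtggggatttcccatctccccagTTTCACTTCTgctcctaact
H2-Q6, chr17:35424667-35424717, plus strand: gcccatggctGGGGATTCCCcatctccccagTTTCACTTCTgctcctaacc
H2-Q7, chr17:35439011-35439061, plus strand: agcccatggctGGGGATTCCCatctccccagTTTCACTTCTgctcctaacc
B2m, chr2:122147517-122147567, plus strand: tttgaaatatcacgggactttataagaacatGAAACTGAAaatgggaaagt
H2-Aa, chr17:34287857-34287919, minus strand: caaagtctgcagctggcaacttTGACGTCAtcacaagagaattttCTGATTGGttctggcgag
H2-Eb1, chr17:34305760-34305822, plus strand: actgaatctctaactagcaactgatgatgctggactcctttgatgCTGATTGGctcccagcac

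The motifs were searched on both strands in windows of 250 bases before to 50 bases after each annotated start, which were at hand for 34 members and for 32851 windows in all. The letters of the kappa B and interferon response motifs were read from the H2-K1 window itself, and the others are textbook cores, so their presence in these genes is a description. The kappa B motif GGGGATTCCC stood in 4 members, H2-K1, H2-D1, H2-Q6 and H2-Q7, and in 0.107% of all windows. The interferon response motif TTTCACTTCT stood in those and in H2-Q4, H2-Q10 and H2-M3, 7 members, and in 0.155% of all windows. The core of the interferon-stimulated response element, GAAANNGAA, stood in B2m, H2-T22 and H2-T23, 3 members, and in 8.56% of all windows. Of the class II elements, the Y box CTGATTGG stood in 18 members and 4.1% of windows, and the X2 box TGACGTCA in H2-Aa alone among the members and in 1.79% of windows. No motif overlapped another in the printed stretches. Only exact matches were counted. The H2-Q4 stretch holds the similar letters ggggatttccc, which were not counted as the kappa B motif.

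**Figure D1:**
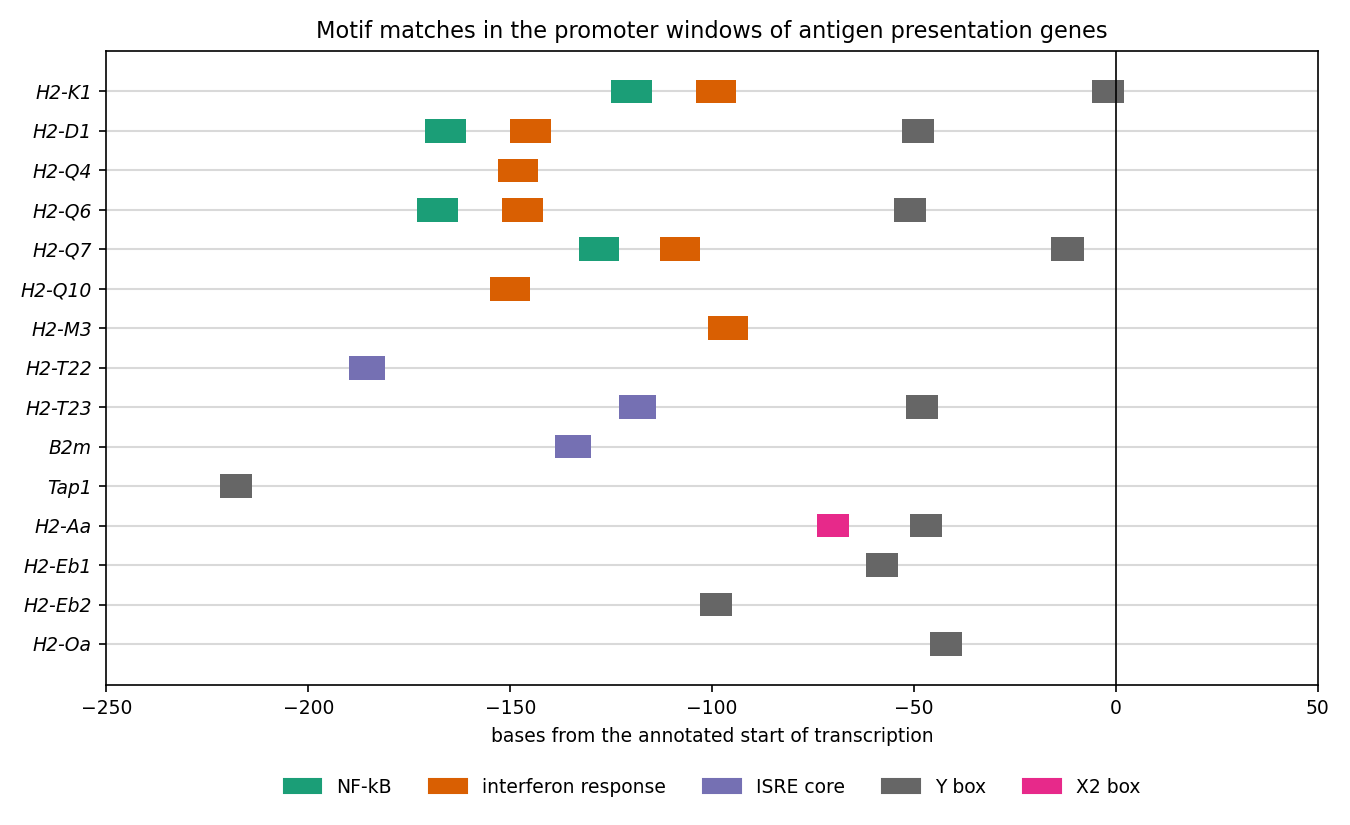
Positions of motif matches in the promoter windows of 15 antigen presentation genes, in bases from the annotated start (0, vertical line; for H2-K1 the second of its annotated starts). The kappa B and interferon response motifs lie next to each other in H2-K1, H2-D1, H2-Q6 and H2-Q7. H2-Q4, H2-Q10 and H2-M3 carry the interferon response motif without an exact match to the kappa B letters searched. The 8 M region genes with a Y box are not drawn.

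The libraries held 22546541 to 36673780 assigned fragments. Log2 expression of the 2 libraries of a group correlated across genes at 0.959 in KPP controls to 0.983. A pair of libraries stood apart in the genes followed here. KPP control 1 had the highest level of all 18 libraries for 11 of the 27 tested members, 40.7%, and for 7.12% of all tested genes. Its level was 6.59 times the median of the other 5 C57BL/6 controls for Ciita, 3.53 times for Cd74, 3.24 times for Nlrc5 and 1.92 times for H2-K1. C26 tumour 2 had the lowest summed class II chains (H2-Aa, H2-Ab1 and H2-Eb1), 4.97 CPM, and the lowest summed myofibre markers, 65884 CPM, of the 18 libraries. Results of members and marker lists that rest on either are given with and without it. Those of the wider gene lists are given mostly as counts. All 12 myofibre markers were detected in each library, and summed to 65884 to 188071 CPM.

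The strains differ in MHC haplotype, and the counts show it. H2-Q1 had 115 to 168 counts in the 4 CD2F1 libraries and 0 to 1 in the 14 C57BL/6 libraries, and H2-Q2 had 32 to 60 and 0 to 1. Those genes passed the filter through the CD2F1 libraries alone, so the C57BL/6 comparisons below count 25 members with more than 3 counts and the C26 comparison counts 27. The family is also hard to tell apart by sequence. Of the 31-base words of their transcripts, H2-K1 shared 22.8%, H2-D1 26.7%, H2-Q4 38.4%, H2-Q6 50.3%, H2-Q7 39.1%, H2-Q10 30.3% and H2-T22 51.0% with other genes, so the split of fragments among single heavy chain genes is uncertain. B2m, Nlrc5 and H2-DMa shared none, and Tap1, H2-Aa, H2-Ab1 and Ciita shared 0.825, 0.833, 0.267 and 0.286%. H2-Ke6 shared 76.1% with the overlapping gene model Gm20427.

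Per transcript length, B2m and the class Ia heavy chains stood highest. The median over the 18 libraries was 104 TPM for B2m (chr2:122147686-122153083), 83.7 TPM for H2-K1 (chr17:33996017-34000347) and 61.4 TPM for H2-D1 (chr17:35262730-35267499). Cd74 had 23.2 TPM, H2-T22 14.0, H2-Aa 13.5, H2-Q4 12.1, H2-Eb1 11, H2-Ab1 10.03 and H2-T23, which encodes Qa-1, 9.33 TPM. The transporter genes and coactivators were far lower, with 1.71 TPM for Tap1, 3.23 TPM for Tap2, 0.766 TPM for Nlrc5 and 0.0988 TPM for Ciita. H2-Ke6, at 61.2 TPM, encodes a steroid dehydrogenase, lies in the MHC and has no part in presentation. All further levels are CPM, counts scaled to the same library total, which are compared within a gene.

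In the LLC model, 5 class I genes rose in tumour muscle and no class II gene was called. Of 25 members, 5 were called higher and 0 lower at an adjusted p under 0.05 (quasi-likelihood test of edgeR, adjusted by Benjamini and Hochberg over 16089 genes), where 7.39% of all tested genes were called higher and 6.24% lower. The called genes were H2-K1, H2-D1, H2-Q4, H2-Q7 and Tap2. Groups were separate in the higher direction for 16 of 25 members and in the lower for 1. Of all tested genes, 31.7% and 32.0% were. The median log2 fold change was 0.74 over the 15 class I members and 0.14 over the 9 class II members, beside -0.000484 over all tested genes. In whole muscle, more cells of a type and more RNA per cell cannot be told apart, here and in every comparison below.

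H2-D1, a classical heavy chain, was at 130.0 and 166 CPM in LLC tumour muscle, against 72.7 and 70.5 CPM in controls, a log2 fold change of 1.05 ± 0.23 (SE of the fit, adjusted p = 0.00889). H2-K1, the other classical heavy chain, was at 115 and 141 CPM in LLC tumour muscle, against 69.1 and 66.6 CPM in controls, and rose by 0.92 ± 0.23 on the log2 scale (adjusted p = 0.0186). Both tumour libraries lay above both controls for each gene, and tumour library 2 was the higher. Of the Q region genes, whose products include the nonclassical Qa-2 molecules, H2-Q4 was at 29.0 and 34.7 CPM in LLC tumour muscle, against 16.3 and 16.3 CPM in controls (log2 fold change 0.96 ± 0.27, adjusted p = 0.0300). H2-Q7 was at 31.8 and 30.2 CPM in LLC tumour muscle, against 10.8 and 9.81 CPM in controls (1.59 ± 0.49, adjusted p = 0.0460). H2-Q6 was at 16.0 and 19.99 CPM in LLC tumour muscle, against 5.78 and 5.37 CPM in controls, a log2 difference of 1.69 ± 0.55 that just missed the threshold (adjusted p = 0.0551). In all of them the tumour and control libraries were separate. Summed over heavy chains, class I transcripts were 362 and 431 CPM in LLC tumour muscle, against 209.9 and 199.6 CPM in controls, a ratio of means of 1.94. Of the other heavy chain genes none was called. H2-Q10, whose protein is secreted, was at 3.46 and 2.86 CPM in LLC tumour muscle, against 1.66 and 2.44 CPM in controls. H2-T23 was at 11.6 and 13.8 CPM in LLC tumour muscle, against 11.4 and 9.32 CPM in controls. H2-M3, which presents formylated peptides, was at 2.07 and 2.08 CPM in LLC tumour muscle, against 1.40 and 1.2 CPM in controls, and H2-T24 at 1.07 and 0.483 CPM in LLC tumour muscle, against 1.23 and 1.2 CPM in controls.

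Of the light chain and loading genes, Tap2 was at 10.9 and 14.9 CPM in LLC tumour muscle, against 7.05 and 8.30 CPM in controls, and rose by 0.75 ± 0.23 on the log2 scale (adjusted p = 0.0481). Its partner Tap1 was at 5.13 and 6.13 CPM in LLC tumour muscle, against 4.12 and 4.06 CPM in controls (log2 difference 0.46 ± 0.40, adjusted p = 0.495), without overlap but not called. Tapbp was at 19.1 and 27.4 CPM in LLC tumour muscle, against 15.8 and 12 CPM in controls (adjusted p = 0.0514), and B2m at 88.8 and 69.1 CPM in LLC tumour muscle, against 59.1 and 46.4 CPM in controls (adjusted p = 0.0655). Both tumour libraries were the higher for each of these 4 genes, as they were for 31.7% of all tested genes. Nlrc5 was at 3.46 and 3.46 CPM in LLC tumour muscle, against 1.91 and 1.69 CPM in controls, again without overlap, with a log2 difference of 0.94 ± 0.62 at an adjusted p of 0.358.

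The class II genes differed little. H2-Aa, an alpha chain, was at 14.2 and 13.5 CPM in LLC tumour muscle, against 12.5 and 12.7 CPM in controls, and Cd74 at 20.6 and 26.7 CPM in LLC tumour muscle, against 22.9 and 19.3 CPM in controls. The beta chain H2-Ab1 was at 10.3 and 13.2 CPM in LLC tumour muscle, against 12.2 and 9.88 CPM in controls, and H2-Eb1 at 10.7 and 12.2 CPM in LLC tumour muscle, against 11.1 and 8.38 CPM in controls. Cd74, H2-Ab1 and H2-Eb1 overlapped between the groups, while H2-Aa was separate with a log2 difference of 0.14 ± 0.51 (adjusted p = 0.905). Ciita was at 0.676 and 0.632 CPM in LLC tumour muscle, against 0.637 and 0.376 CPM in controls, and H2-DMa, a chain of the peptide exchange factor, at 1.15 and 1.60 CPM in LLC tumour muscle, against 2.21 and 1.54 CPM in controls. The 15 macrophage markers summed to 54.2 and 52.4 CPM in LLC tumour muscle, against 58.6 and 46.4 CPM in controls, and 0 of 15 were called in either direction by edgeR. The dendritic cell markers summed to 7.48 and 9.03 CPM in tumour muscle, against 8.63 and 8.57 CPM in controls. Of these, 1 was called lower, Cd209a (log2 fold change -3.50), which lost its call without LLC tumour 2, and 0 were called higher. The T and NK cell markers summed to 1.23 and 1.0 CPM in tumour muscle, against 1.02 and 0.564 CPM in controls, with Cd3e and Cd3g at 0 in both tumour libraries and Ncr1 at 0 in both controls. The 9 neutrophil markers summed to 8.35 and 7.06 CPM in tumour muscle, against 3.23 and 1.54 CPM in controls, with 2 called higher, and 0 to 2 when 1 LLC library was left out. The 9 fibro-adipogenic markers summed to 369 and 313 CPM in tumour muscle, against 559 and 600.3 CPM in controls, with 4 called lower, and 1 to 3 when 1 LLC library was left out. Groups were separate in both of these sums. The part of any of these cells in the class I result was not tested.

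The LLC calls moved when 1 library was left out. Without LLC tumour 2, LLC control 1 or LLC control 2, 0 of the 5 genes were called, with adjusted p between 0.0778 and 0.387 and log2 fold changes between 0.50 and 1.65. Without LLC tumour 1, 3 of the 5 were called, among 4 members in all. Fewer genes of any kind were then called higher, 1.23, 1.87 and 2.27% in the 3 fits with no call and 5.0% without LLC tumour 1. In the authors' deposited table for LLC, 8 members were higher at an adjusted p under 0.05 and 0 lower, where 13.8% of all its genes with an adjusted p were higher and 11.9% lower. They were the 5 above, H2-Q6, Tapbp and B2m.

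**Figure D2:**
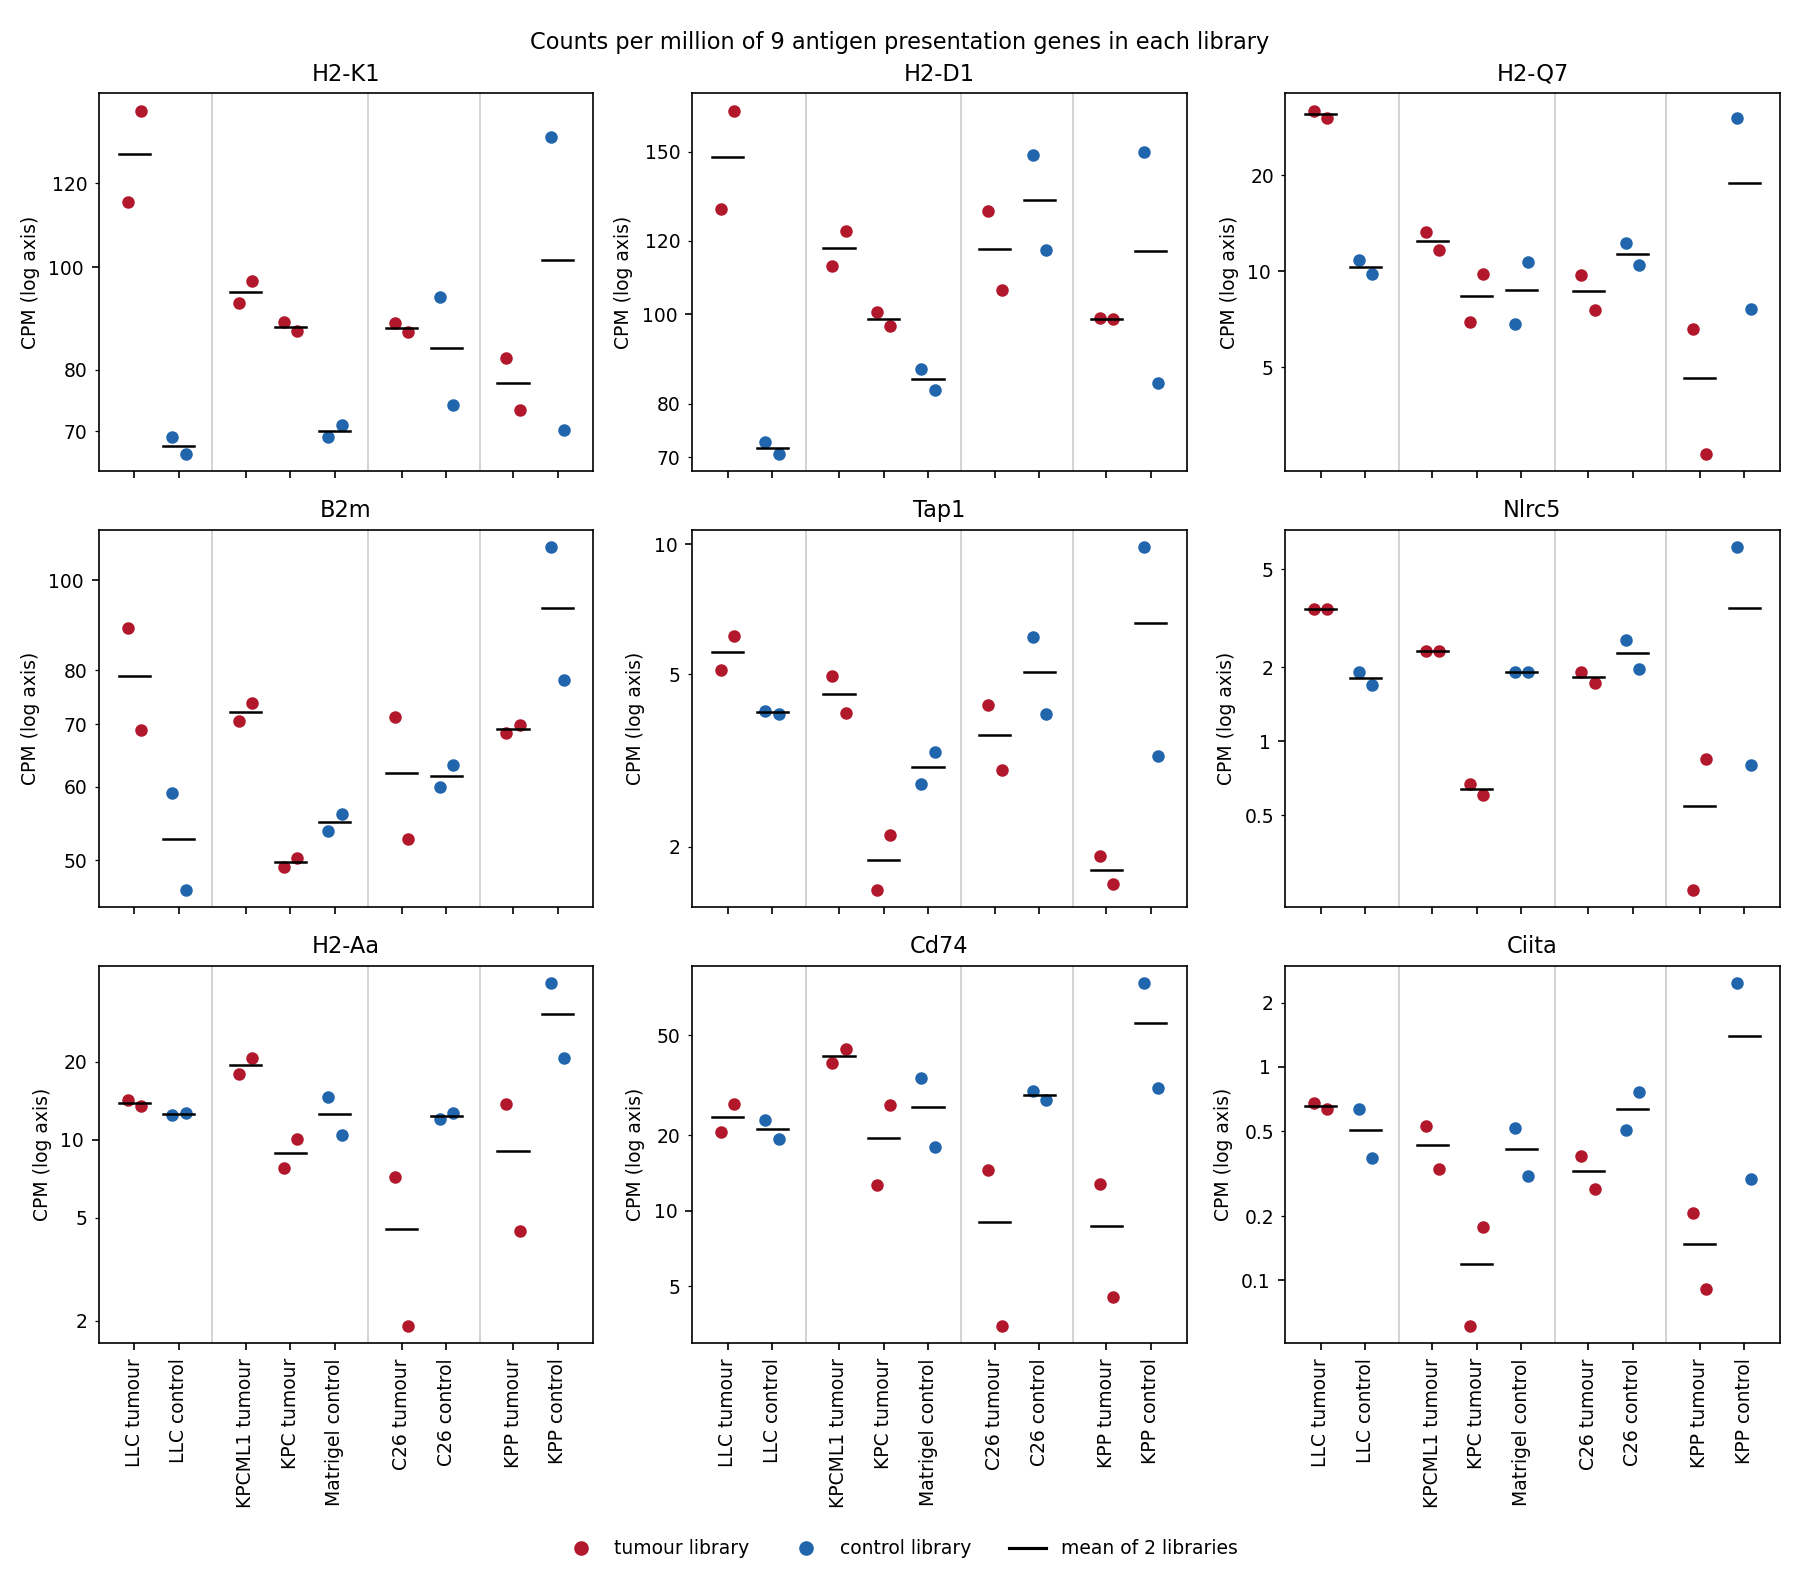
CPM of 9 antigen presentation genes in each of the 18 libraries (points; log axes that differ between panels) with the mean of the 2 libraries of a group (line), tumour groups left of their controls and experiments parted by grey lines. H2-K1 and H2-D1 stand at 115 to 166 CPM in LLC tumour muscle and at 66.6 to 72.7 CPM in its controls, and KPP control 1 lies above KPP control 2 in every panel.

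In the KPP model, class I loading genes, nonclassical heavy chains and class II genes were called lower in tumour muscle, and every one of these calls was lost without 1 control library. Of 25 members, 16 were called lower and 0 higher, where 19.3% of all tested genes were called lower and 17.4% higher. Groups were separate in the lower direction for 21 of 25 members and in the higher for 0. Of all tested genes, 33.9% and 30.2% were. Without KPP control 1, edgeR called 0 members, where 10.2% of all genes were called lower and 8.81% higher. Of 25 members, 22 still had a lower fitted level, 7 at an unadjusted p under 0.05 (as were 17.5% of all genes), and the median log2 fold change was -0.77. With all 4 libraries that median was -1.67, beside -0.04 over all tested genes, with -1.01 over 15 class I members and -2.16 over 9 class II members.

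Of the class II genes, 6 of 9 were called lower in KPP tumour muscle. Cd74 was at 12.8 and 4.54 CPM in KPP tumour muscle, against 80.9 and 30.8 CPM in controls (log2 fold change -2.70 ± 0.64, adjusted p = 0.00515; -1.84 without KPP control 1). H2-Ab1 was at 7.60 and 2.70 CPM in KPP tumour muscle, against 45 and 15.4 CPM in controls (log2 fold change -2.57 ± 0.61, adjusted p = 0.00514; -1.59 without KPP control 1). H2-Eb1 was at 7.97 and 3.12 CPM in KPP tumour muscle, against 35.7 and 13.2 CPM in controls (log2 fold change -2.16 ± 0.56, adjusted p = 0.00864; -1.27 without KPP control 1). For these genes control 2 alone already lay above both tumour libraries, and control 1 lay higher again. H2-Aa was at 13.7 and 4.45 CPM in KPP tumour muscle, against 40.5 and 20.8 CPM in controls (log2 fold change -1.77 ± 0.52, adjusted p = 0.0171; -1.20 without KPP control 1), and H2-DMa at 1.28 and 0.939 CPM in KPP tumour muscle, against 4.85 and 2.15 CPM in controls (log2 fold change -1.67 ± 0.38, adjusted p = 0.00387; -0.96 without KPP control 1). Ciita was at 0.206 and 0.0909 CPM in KPP tumour muscle, against 2.48 and 0.300 CPM in controls (log2 fold change -3.26 ± 0.85, adjusted p = 0.00893; -1.04 without KPP control 1). The Ciita levels of the tumour libraries and of control 2 were all low, and control 1 alone was high. Summed, the class II chains were 29.3 and 10.3 CPM in KPP tumour muscle, against 121 and 49.4 CPM in controls.

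Of the loading genes, Tap1 was at 1.90 and 1.64 CPM in KPP tumour muscle, against 9.87 and 3.25 CPM in controls (log2 fold change -1.90 ± 0.42, adjusted p = 0.00314; -0.88 without KPP control 1). Tapbp was at 9.37 and 8.90 CPM in KPP tumour muscle, against 21.7 and 14.9 CPM in controls (log2 fold change -1.01 ± 0.24, adjusted p = 0.00515; -0.71 without KPP control 1), and Tap2 at 5.74 and 5.66 CPM in KPP tumour muscle, against 11.5 and 8.34 CPM in controls (log2 fold change -0.80 ± 0.24, adjusted p = 0.0168; -0.55 without KPP control 1). Their tumour libraries were close to each other and lay below both controls. Nlrc5 was at 0.248 and 0.848 CPM in KPP tumour muscle, against 6.19 and 0.799 CPM in controls (log2 fold change -2.64 ± 0.68, adjusted p = 0.00817; -0.49 without KPP control 1). Its groups overlapped, with tumour 2 above control 2.

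The heavy chains were split. The classical genes were not called: H2-K1 was at 82.1 and 73.3 CPM in KPP tumour muscle, against 133 and 70.2 CPM in controls (log2 difference -0.39 ± 0.23, adjusted p = 0.200), and H2-D1 at 98.9 and 98.8 CPM in KPP tumour muscle, against 149.9 and 84.2 CPM in controls (-0.24 ± 0.23, adjusted p = 0.418). Without KPP control 1 their differences were 0.15 and 0.23. B2m was at 68.5 and 69.9 CPM in KPP tumour muscle, against 109 and 78.2 CPM in controls (adjusted p = 0.0968), and H2-T23 at 11.6 and 9.72 CPM in KPP tumour muscle, against 20.5 and 12.9 CPM in controls (adjusted p = 0.0570), both separate but not called. Of the nonclassical genes, 6 were called lower. H2-Q7 was at 6.61 and 2.66 CPM in KPP tumour muscle, against 30.2 and 7.59 CPM in controls (log2 fold change -2.05 ± 0.51, adjusted p = 0.00670; -0.73 without KPP control 1). H2-Q6 was at 3.05 and 0.818 CPM in KPP tumour muscle, against 15.5 and 4.20 CPM in controls (log2 fold change -2.39 ± 0.58, adjusted p = 0.00614; -1.15 without KPP control 1), and H2-Q4 at 11.4 and 7.69 CPM in KPP tumour muscle, against 26.4 and 12.6 CPM in controls (log2 fold change -1.04 ± 0.27, adjusted p = 0.00979; -0.40 without KPP control 1). In all 3 Q region genes the tumour libraries lay below both controls and the controls differed from each other. H2-Q10 was at 1.44 and 1.45 CPM in KPP tumour muscle, against 4.0 and 2.0 CPM in controls (log2 fold change -1.06 ± 0.34, adjusted p = 0.0260; -0.46 without KPP control 1). H2-T24 was at 0.495 and 0.242 CPM in KPP tumour muscle, against 2.16 and 1.60 CPM in controls (log2 fold change -2.37 ± 0.64, adjusted p = 0.0111; -2.14 without KPP control 1), and H2-M3 at 1.40 and 1.15 CPM in KPP tumour muscle, against 2.44 and 2.35 CPM in controls (log2 fold change -0.91 ± 0.33, adjusted p = 0.0436; -0.88 without KPP control 1). Among the 16 called genes, leaving out control 1 moved the estimate least for H2-M3 and H2-T24.

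Markers of other cells also moved with the KPP groups. The 12 T and NK cell markers summed to 0.165 and 0.273 CPM in KPP tumour muscle, against 2.41 and 0.549 CPM in controls; Cd3e, Cd3g, Cd4, Ncr1, Nkg7, Gzma and Prf1 were at 0 in both tumour libraries. The 8 B cell markers summed to 0.248 and 0.0303 CPM in tumour muscle, against 0.743 and 1.5 CPM in controls. Of these, 5 were at 0 in both tumour libraries, among them Pax5, Cd22, Fcer2a and Blk. The dendritic cell markers summed to 6.15 and 7.69 CPM in tumour muscle, against 12.9 and 9.89 CPM in controls, with Flt3 and Clec9a at 0 in both tumour libraries. The tumour libraries lay below both controls in all 3 sums, and Trbc2, Cd209a and Zbtb46 were called lower. Cd209a and Zbtb46 kept their calls without any 1 of the 4 libraries. Trbc2 was at 0.0413 and 0 CPM in KPP tumour muscle, against 0.849 and 0.0499 CPM in controls, high in control 1 alone, and was not called without KPP control 1. The macrophage markers summed to 139.8 and 128 CPM in tumour muscle, against 124 and 74.5 CPM in controls, with 1 of 15 called higher and 1 lower (0 and 1 without KPP control 1). The 12 endothelial markers summed to 206 and 146 CPM in tumour muscle, against 373 and 372 CPM in controls, and 10 of 12 were called lower (5 without KPP control 1). The fibro-adipogenic markers summed to 552 and 309 CPM in tumour muscle, against 1293 and 968 CPM in controls, with 6 of 9 called lower (5 without KPP control 1) and a median log2 fold change of -2.55. The neutrophil markers summed to 20.5 and 61.1 CPM in tumour muscle, against 2.87 and 3.20 CPM in controls, with 4 of 9 called higher (3 without KPP control 1). Of 12 myofibre markers, 3 were called lower, with or without KPP control 1. The part of these cells in the result was not tested.

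**Figure D3:**
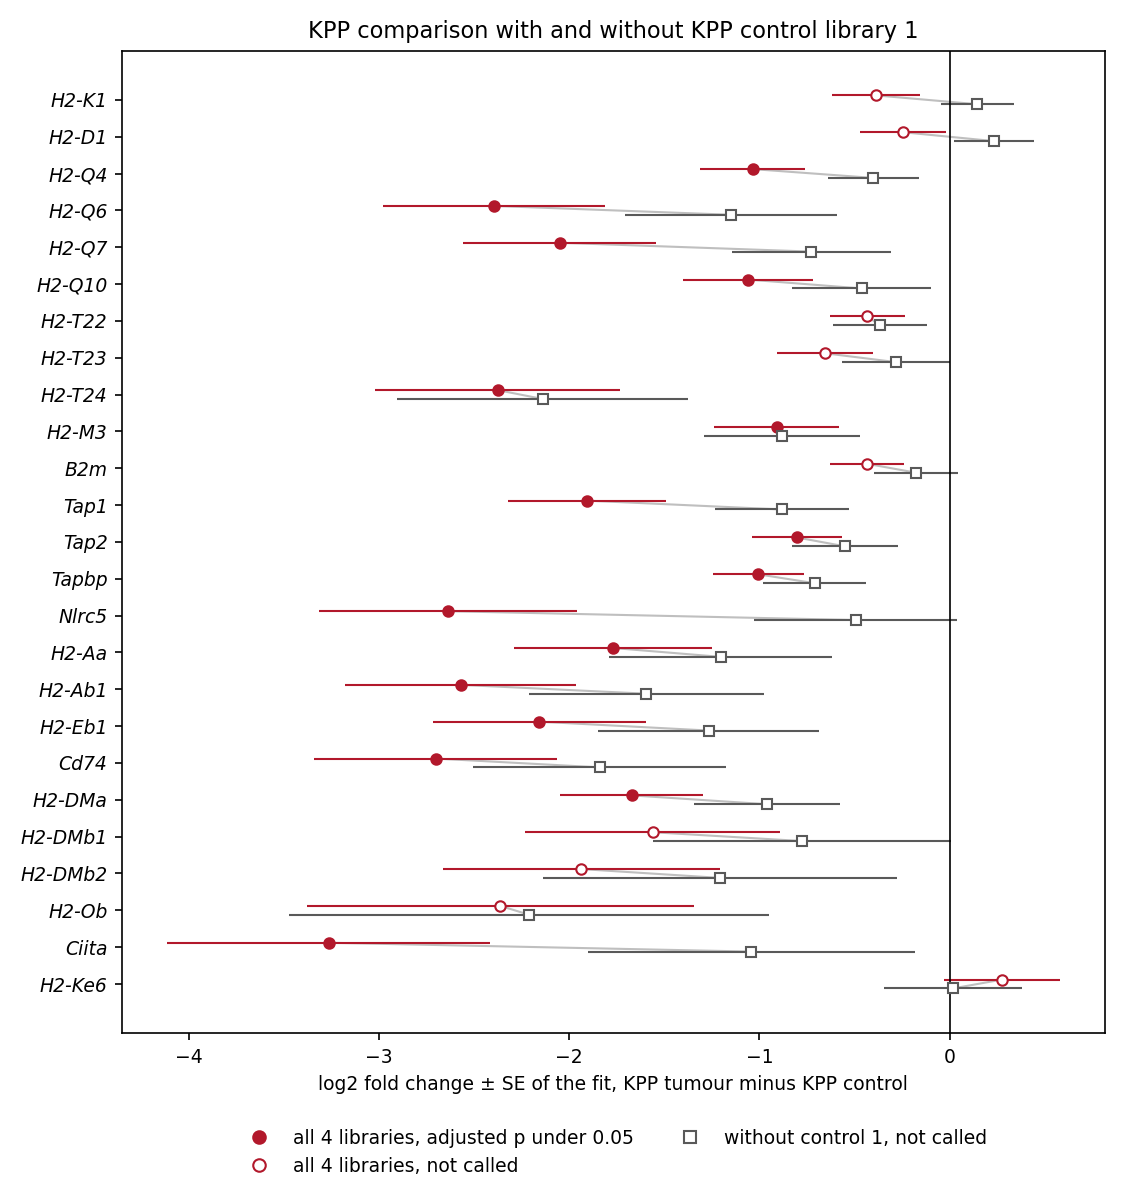
Log2 fold change of each member in KPP tumour minus KPP control muscle, with all 4 libraries (circles, filled where the adjusted p was under 0.05) and without KPP control 1 (squares); bars are the SE of the fit. The 16 filled circles lie between -3.26 and -0.80, and their squares between -2.14 and -0.40.

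Leaving out other KPP libraries also moved the count. Without KPP control 2, 21 members were called lower, as were 15.8% of all genes. Without KPP tumour 1, 12 members were (13.1% of all genes), and without KPP tumour 2, 4 members were, Tap1, Tapbp, H2-DMa and Nlrc5 (12.8% of all genes), while H2-Ke6 was called higher (15.5% of all genes). When only the 4 KPP libraries were fitted, 7 members were called lower, as were 11.5% of all genes. In the authors' deposited table for KPP, 11 members were lower and 0 higher at an adjusted p under 0.05, where 9.64% of its genes were lower and 12.9% higher. They were Cd74, H2-Ab1, H2-Eb1, H2-Aa, H2-Q6, Tap1, Ciita, Tapbp, H2-T24, H2-DMa and Nlrc5.

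In the C26 model, class II genes were at lower levels in both tumour libraries and none was called. Of 27 members, edgeR called 0 higher and 0 lower, where 11.5% of all tested genes were called higher and 9.8% lower; 3 members were lower at an unadjusted p under 0.05, as were 16.0% of all genes, and DESeq2 called 2 lower and 12.2% of all genes. All 9 class II members had a lower fitted level, 7 without overlap of the groups, with a median log2 difference of -0.96, beside 0.04 over all tested genes. Groups were separate in the lower direction for 31.5% of all tested genes.

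Cd74 was at 14.6 and 3.47 CPM in C26 tumour muscle, against 30.01 and 27.6 CPM in controls (log2 difference -1.67 ± 0.62, adjusted p = 0.0697; -0.97 without C26 tumour 2). H2-Eb1 was at 5.37 and 1.53 CPM in C26 tumour muscle, against 10.3 and 10.003 CPM in controls (log2 difference -1.56 ± 0.56, adjusted p = 0.0634; -0.91 without C26 tumour 2), and H2-Aa at 7.18 and 1.90 CPM in C26 tumour muscle, against 12 and 12.6 CPM in controls (log2 difference -1.44 ± 0.53, adjusted p = 0.0677; -0.77 without C26 tumour 2). H2-Ab1 was at 6.60 and 1.53 CPM in C26 tumour muscle, against 10.3 and 9.46 CPM in controls (log2 difference -1.28 ± 0.60, adjusted p = 0.146; -0.57 without C26 tumour 2). In these 4 genes both tumour libraries lay below both controls and tumour 2 lay far below tumour 1. Ciita was at 0.381 and 0.267 CPM in C26 tumour muscle, against 0.504 and 0.765 CPM in controls, and H2-DMa at 1.27 and 1.07 CPM in C26 tumour muscle, against 1.84 and 2.13 CPM in controls. Without C26 tumour 2, 0 members had an unadjusted p under 0.05 and 3.62% and 2.68% of all genes were called higher and lower. Without C26 tumour 1, 5 members were called lower, as were 9.6% of all genes. The macrophage markers summed to 122 and 83.6 CPM in C26 tumour muscle, against 79.8 and 76.1 CPM in controls, the other direction, with 0 of 15 called. The dendritic cell markers summed to 11.1 and 11.9 CPM in tumour muscle, against 11.3 and 9.72 CPM in controls. Of these, 1 was called higher and 1 lower, and neither call held without C26 tumour 2. The B cell markers summed to 0.445 and 0.500 CPM in tumour muscle, against 0.685 and 0.733 CPM in controls. The T and NK cell markers summed to 0.254 and 0.433 CPM in tumour muscle, against 0.504 and 0.701 CPM in controls. Both tumour libraries lay below both controls in the B cell and the T and NK cell sums. The neutrophil markers summed to 9.49 and 25.6 CPM in tumour muscle, against 1.69 and 1.47 CPM in controls, with 4 of 9 called higher (3 without C26 tumour 2). The fibro-adipogenic markers summed to 728 and 379.9 CPM in tumour muscle, against 1204 and 943 CPM in controls, with 3 of 9 called lower and 1 higher (1 and 1 without C26 tumour 2). The myofibre markers summed to 133787 and 65884 CPM in tumour muscle, against 144554 and 138681 CPM in controls, with 5 of 12 called lower (4 without C26 tumour 2). In the last 2 sums tumour 2 lay below tumour 1 and both lay below the controls. The part of these cells in the class II values was not tested.

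No class I gene was called in C26, and 12 of 17 overlapped between the groups. H2-K1 was at 88.5 and 86.8 CPM in C26 tumour muscle, against 93.8 and 74.1 CPM in controls, and H2-D1 at 129 and 106 CPM in C26 tumour muscle, against 149 and 117 CPM in controls. B2m was at 71.3 and 52.7 CPM in C26 tumour muscle, against 59.99 and 63.3 CPM in controls, and Tap1 at 4.25 and 3.0 CPM in C26 tumour muscle, against 6.09 and 4.05 CPM in controls. All 4 genes had overlapping groups. Tap2 was at 9.78 and 10.003 CPM in C26 tumour muscle, against 11.6 and 8.57 CPM in controls, and Tapbp at 18.7 and 18 CPM in C26 tumour muscle, against 20.8 and 16.9 CPM in controls. Nlrc5 was at 1.91 and 1.73 CPM in C26 tumour muscle, against 2.59 and 1.98 CPM in controls, with both tumour libraries below both controls (log2 difference -0.33 ± 0.62, adjusted p = 0.759). H2-Q4 was at 30.3 and 28.5 CPM in C26 tumour muscle, against 40.8 and 34.5 CPM in controls, H2-Q6 at 12 and 7.84 CPM in C26 tumour muscle, against 19.2 and 13.2 CPM in controls, and H2-Q7 at 9.72 and 7.57 CPM in C26 tumour muscle, against 12.2 and 10.4 CPM in controls. H2-Q10 was at 5.33 and 4.40 CPM in C26 tumour muscle, against 7.53 and 5.16 CPM in controls, and H2-T23 at 17.9 and 11.7 CPM in C26 tumour muscle, against 17.4 and 16.1 CPM in controls. H2-T24 was at 2.16 and 0.867 CPM in C26 tumour muscle, against 3.49 and 2.36 CPM in controls, and H2-M3 at 2.45 and 1.37 CPM in C26 tumour muscle, against 2.31 and 2.61 CPM in controls. The groups were separate in the lower direction for H2-Q4, H2-Q6, H2-Q7 and H2-T24, and overlapped for H2-Q10, H2-T23 and H2-M3. In the authors' deposited table for C26, 3 members, H2-Q6, H2-Eb1 and H2-Aa, were lower and 0 higher at an adjusted p under 0.05, where 9.99% of its genes were lower and 10.6% higher.

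In the orthotopic models, no member was called against the shared controls. In KPCML1 tumour muscle edgeR called 0 of 25 members higher and 0 lower, where 4.15% of all tested genes were called higher and 4.38% lower; 2 members were higher at an unadjusted p under 0.05, as were 12.6% of all genes. DESeq2 called 1 member higher, H2-T23 (adjusted p = 0.0404), and 6.61% of all genes. The fitted level was higher for 24 of 25, with a median log2 difference of 0.44, beside 0.02 over all genes, and 19 of 25 were separate in the higher direction and 0 in the lower, as were 30.8% and 29.2% of all genes. In KPC tumour muscle edgeR also called 0 of 25 in either direction, where 15.3% of all genes were called higher and 13.7% lower; 1 member was lower at an unadjusted p under 0.05, as were 20.1% of all genes. DESeq2 called 0 members, and 17.1% of all genes higher and 13.8% lower. The fitted level was lower for 19 of 25 and the median was -0.34, beside -0.01 over all genes. KPC groups were separate in the lower direction for 12 of 25 members and in the higher for 3. Of all genes, 34.0% and 31.4% were.

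The classical heavy chains were at higher values in both models. H2-K1 was at 92.6 and 97.1 CPM in KPCML1 tumour muscle and 88.7 and 87.0 CPM in KPC tumour muscle, against 69.1 and 71.0 CPM in Matrigel controls. H2-D1 was at 113 and 123 CPM in KPCML1 tumour muscle and 100.5 and 97.2 CPM in KPC tumour muscle, against 87.2 and 82.8 CPM in Matrigel controls. Tumour and control libraries were separate for both genes, and the log2 differences in KPCML1 were 0.44 ± 0.23 and 0.47 ± 0.23 (adjusted p = 0.259 and 0.217). B2m was at 70.6 and 73.8 CPM in KPCML1 tumour muscle and 49.2 and 50.2 CPM in KPC tumour muscle, against 53.7 and 56.1 CPM in Matrigel controls. H2-T23 was at 18.2 and 21.3 CPM in KPCML1 tumour muscle and 11.6 and 8.45 CPM in KPC tumour muscle, against 11.7 and 11.3 CPM in Matrigel controls, and had the smallest adjusted p of the members in KPCML1, 0.0701. For both genes KPCML1 lay above the controls, and KPC lay below them for B2m and overlapped them for H2-T23. Tap2 was at 10.8 and 13.1 CPM in KPCML1 tumour muscle and 6.76 and 5.75 CPM in KPC tumour muscle, against 7.10 and 8.77 CPM in Matrigel controls. Tap1 was at 4.97 and 4.06 CPM in KPCML1 tumour muscle and 1.58 and 2.13 CPM in KPC tumour muscle, against 2.79 and 3.31 CPM in Matrigel controls. Tapbp was at 21.6 and 21.3 CPM in KPCML1 tumour muscle and 11 and 15.8 CPM in KPC tumour muscle, against 17.9 and 16.7 CPM in Matrigel controls. The KPCML1 libraries were above the controls and the KPC libraries below them for all 3 loading genes. Nlrc5 was at 2.34 and 2.32 CPM in KPCML1 tumour muscle and 0.670 and 0.604 CPM in KPC tumour muscle, against 1.91 and 1.91 CPM in Matrigel controls. KPC muscle held the lowest Nlrc5 of this experiment (log2 difference -1.58 ± 0.67, adjusted p = 0.0893), and in the authors' deposited table for KPC it was the 1 member called, with a log2 fold change of -1.91 (adjusted p = 0.0272), where 8.78% of its genes were lower and 12.9% higher.

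The class II genes were at higher values in KPCML1 and at lower or overlapping values in KPC. H2-Aa was at 18 and 20.8 CPM in KPCML1 tumour muscle and 7.80 and 10.1 CPM in KPC tumour muscle, against 14.7 and 10.47 CPM in Matrigel controls. Cd74 was at 38.9 and 44.0 CPM in KPCML1 tumour muscle and 12.7 and 26.4 CPM in KPC tumour muscle, against 33.9 and 18 CPM in Matrigel controls. KPCML1 libraries lay above both controls for these genes, and for Cd74 the KPC libraries overlapped them. H2-Ab1 was at 17.9 and 19.3 CPM in KPCML1 tumour muscle and 6.37 and 9.41 CPM in KPC tumour muscle, against 13.6 and 9.08 CPM in Matrigel controls. H2-Eb1 was at 15.4 and 17 CPM in KPCML1 tumour muscle and 6.61 and 9.95 CPM in KPC tumour muscle, against 13.4 and 7.57 CPM in Matrigel controls. The controls themselves differed for each class II chain. H2-DMa was at 2.45 and 2.36 CPM in KPCML1 tumour muscle and 1.25 and 1.14 CPM in KPC tumour muscle, against 1.82 and 1.5 CPM in Matrigel controls. Ciita was at 0.526 and 0.332 CPM in KPCML1 tumour muscle and 0.0609 and 0.178 CPM in KPC tumour muscle, against 0.519 and 0.307 CPM in Matrigel controls. The low counts of Ciita give little precision. The remaining heavy chains, H2-Q4, H2-Q6, H2-Q7, H2-Q10, H2-T24 and H2-M3, gave adjusted p between 0.133 and 0.944 in the 2 comparisons. H2-Q4 was at 20.8 and 19.9 CPM in KPCML1 tumour muscle and 16.3 and 19.3 CPM in KPC tumour muscle, against 16.7 and 17.4 CPM in Matrigel controls, and H2-Q6 at 7.13 and 8.99 CPM in KPCML1 tumour muscle and 4.33 and 6.39 CPM in KPC tumour muscle, against 5.09 and 7.61 CPM in Matrigel controls. H2-Q7 was at 13.2 and 11.6 CPM in KPCML1 tumour muscle and 6.95 and 9.80 CPM in KPC tumour muscle, against 6.84 and 10.6 CPM in Matrigel controls, and H2-Q10 at 2.16 and 2.07 CPM in KPCML1 tumour muscle and 1.74 and 2.27 CPM in KPC tumour muscle, against 1.36 and 1.54 CPM in Matrigel controls. Tumour and control libraries were separate in the higher direction for H2-Q4, H2-Q7 and H2-Q10 in KPCML1 and for H2-Q10 in KPC, and H2-Q6 overlapped in both. H2-T24 was at 0.906 and 0.663 CPM in KPCML1 tumour muscle and 0.670 and 0.142 CPM in KPC tumour muscle, against 0.875 and 1.19 CPM in Matrigel controls, and H2-M3 at 1.75 and 1.99 CPM in KPCML1 tumour muscle and 0.884 and 1.46 CPM in KPC tumour muscle, against 1.59 and 1.57 CPM in Matrigel controls. The macrophage markers summed to 169.9 and 151 CPM in KPCML1 tumour muscle and 87.8 and 89.2 CPM in KPC tumour muscle, against 84.2 and 50.1 CPM in Matrigel controls, and 4 of 15 were called higher in KPCML1 (Cd163, Lyz2, Mrc1 and C1qa). Of these, 2 were called without Matrigel control 1, 1 without KPCML1 tumour 1, and 0 without Matrigel control 2 or KPCML1 tumour 2. The dendritic cell markers summed to 16.1 and 15.7 CPM in KPCML1 tumour muscle and 5.94 and 11.7 CPM in KPC tumour muscle, against 10.8 and 9.45 CPM in Matrigel controls, with 1 called higher in KPCML1, and 1 higher and 1 lower in KPC. The neutrophil markers summed to 18.1 and 34.1 CPM in KPCML1 tumour muscle and 72.4 and 53.3 CPM in KPC tumour muscle, against 3.44 and 2.12 CPM in Matrigel controls, with 4 called higher in KPCML1 and 6 in KPC. The part of these cells in the class II values was not tested.

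**Figure D4:**
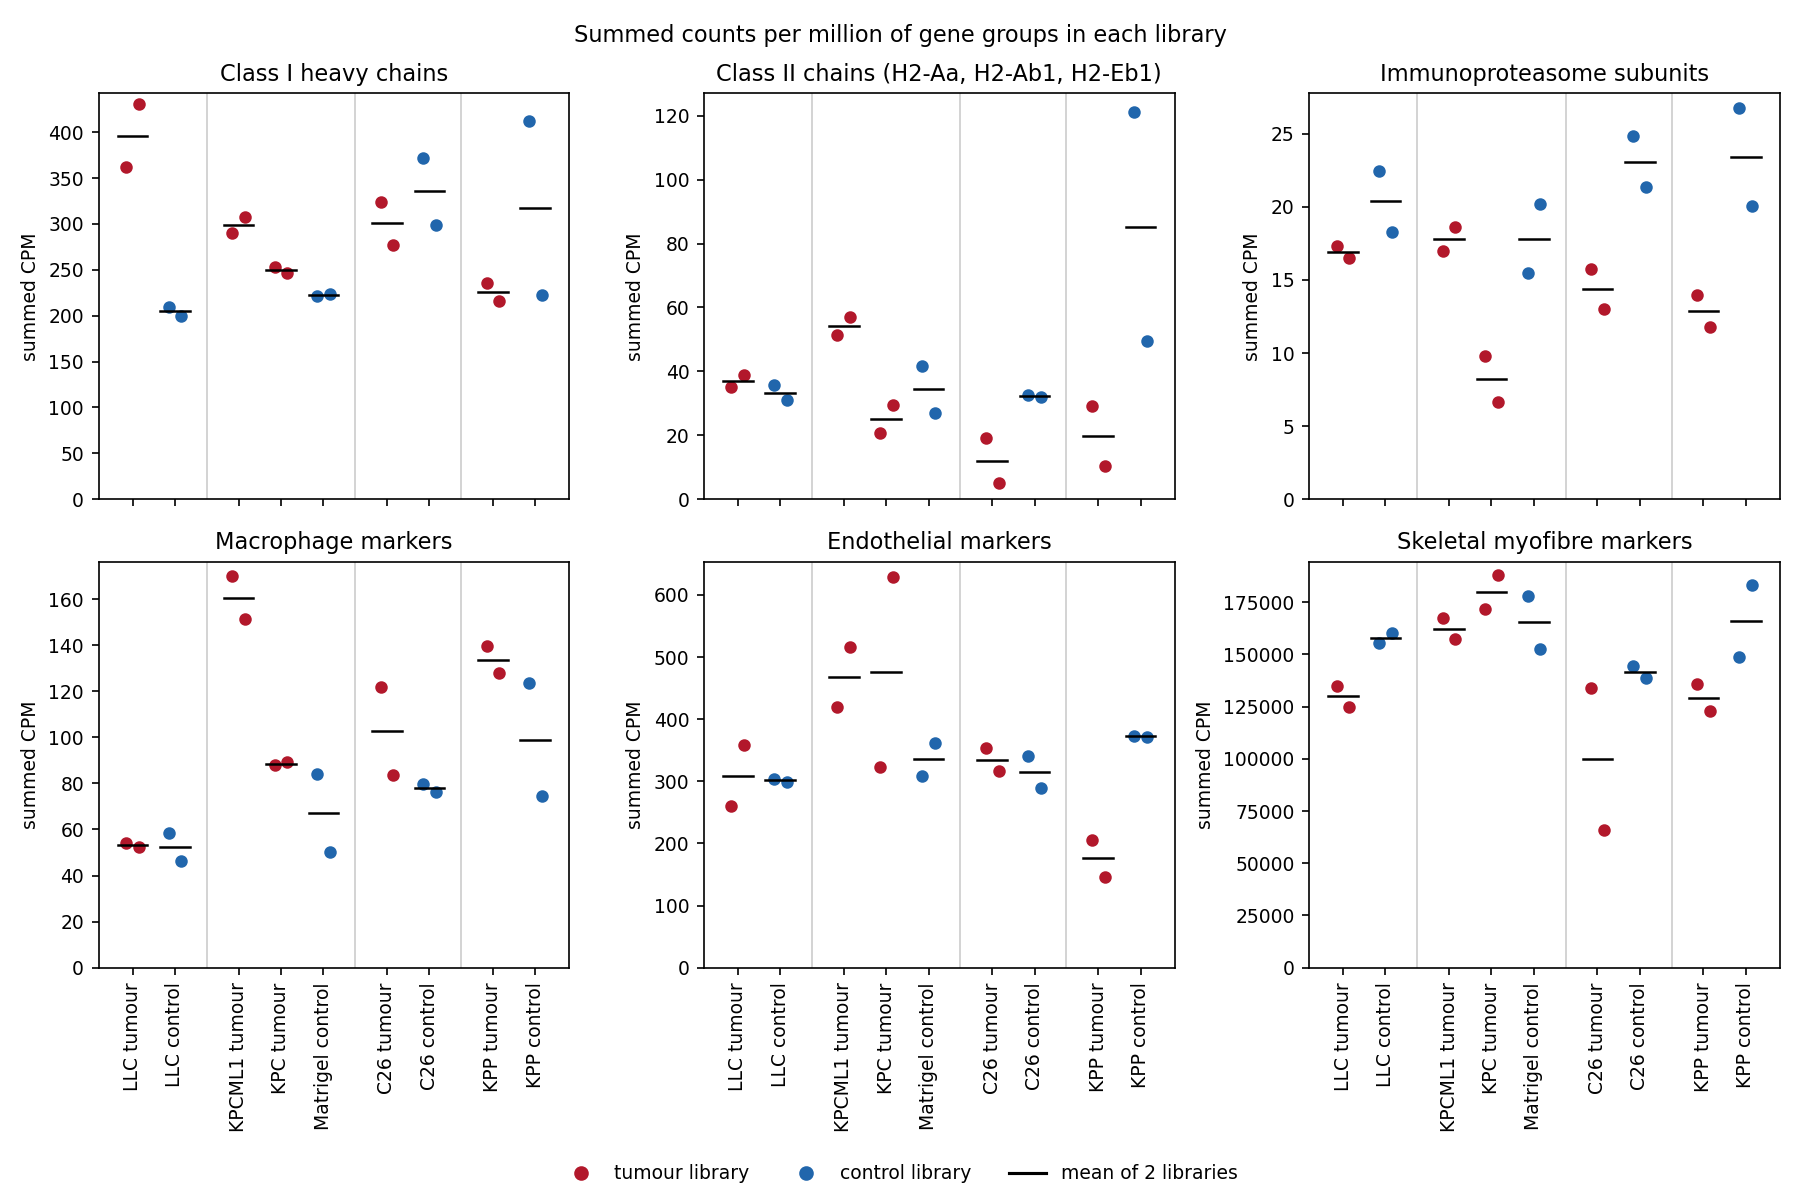
Summed CPM of 3 groups of antigen presentation genes and 3 lists of cell type markers in each library (points) with the mean of 2 libraries (line); axes start at 0. Class I heavy chains separate LLC tumour muscle (362 and 431 CPM) from its controls (209.9 and 199.6 CPM), class II chains have their lowest means in C26 and KPP tumour muscle, and macrophage markers are highest in KPCML1 tumour muscle.

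Whether the tumour effects differed among the 5 models was tested in the same fit. The joint test called 7 of 27 members, where 8.32% of all tested genes were called: Tap2 (adjusted p = 0.0218), Tapbp (0.0257), H2-Q4 (0.0367), Tap1 (0.0368), H2-Q7 (0.038), H2-Q6 (0.0397) and H2-T23 (0.0464). All are class I genes. Of the 10 pairs of models, LLC minus KPP called 11 members, where 8.29% of all genes were called, KPCML1 minus KPP called 7 (3.47% of all genes) and KPCML1 minus KPC called 2 (5.99% of all genes), and the other 7 pairs called 0. Of all genes, those 7 called 1.84% in LLC minus KPC, 1.08% in C26 minus KPP, 0.87% in KPC minus C26, 0.466% in LLC minus C26, 0.18% in LLC minus KPCML1, 0.0373% in KPC minus KPP and 0.0186% in KPCML1 minus C26. In LLC minus KPP the differences were positive for all 11: H2-Q6 4.08, H2-Q7 3.64, Nlrc5 3.58, Tap1 2.36, H2-Q4 2.0, Tapbp 1.75, H2-Q10 1.68, Tap2 1.55, H2-K1 1.30, H2-D1 1.29 and B2m 1.02 on the log2 scale. In KPCML1 minus KPP they were positive for all 7, with Cd74 at 3.38 and H2-Ab1 at 3.28, then Tap1 2.47, H2-DMa 2.21, H2-T23 1.44, Tap2 1.40 and Tapbp 1.32. Without KPP control 1 both of these pairs called 0 members, with 0.998% of all genes in LLC minus KPP and 0.291% in KPCML1 minus KPP, and the joint test called 2 members and 3.6% of all genes. LLC minus KPP called 1 member and 1.03% of all genes without LLC control 1, 2 and 2.71% without LLC control 2, and 2 and 1.34% without LLC tumour 2. It called 6 members and 3.31% of all genes without LLC tumour 1, and 6 and 7.5% without KPP tumour 2. KPCML1 minus KPP called 0 to 15 members and 0 to 4.99% of all genes when 1 library was left out, and the joint test 0 to 16 members and 2.51 to 15.5% of all genes.

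KPCML1 minus KPC needs no control library. Tap2 was higher in KPCML1 than in KPC tumour muscle by 0.93 ± 0.23 on the log2 scale (adjusted p = 0.0337) and H2-T23 by 0.98 ± 0.25 (adjusted p = 0.0384). These calls also moved when a library outside the pair was left out. Nlrc5 and Tap1 joined them without KPP control 1 or KPP control 2. H2-T23 lost its call without any 1 LLC library, C26 control or Matrigel control, while Tap2 kept its call in those fits. Without KPC tumour 2 or either KPCML1 library 0 members were called, with 0.111 to 0.558% of all genes. Outside the members, Irf1 was higher by 1.95 (adjusted p = 0.00562), Psmb9 by 2.35 (0.0262), Psmb8 by 1.60 (0.0121) and Irf9 by 1.38 (0.0187). Since the 2 groups share their controls, their changes against them are not independent.

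The rest of the pathway was read from lists of genes that hold no member, with log2 fold changes in parentheses. Of all tested genes, 7.39% were called higher and 6.24% lower in LLC, 4.15% and 4.38% in KPCML1, and 15.3% and 13.7% in KPC. The shares were 11.5% and 9.8% in C26, and 17.4% and 19.3% in KPP. Whether the count of a list differs from these shares was not tested. Of 88 calls over the 5 lists and 5 models, 22 held in all 4 fits that left out 1 library of the comparison, 52 held in 1 to 3 of them and 14 in 0. Those 22 were 3 of 12 calls in LLC, 0 of 4 in KPCML1, 4 of 23 in KPC, 4 of 20 in C26 and 11 of 29 in KPP. Of 10 genes that supply class I peptides, 1 was called higher and 2 lower in LLC, 0 in either direction in KPCML1, 1 higher and 4 lower in KPC, 0 higher and 2 lower in C26, and 1 higher and 4 lower in KPP. The KPP call of Psmb10 was lost without any 1 of the 4 libraries. Psmb10, a catalytic subunit of the immunoproteasome, fell in LLC (-1.01), KPC (-1.02), C26 (-0.84) and KPP (-0.74), and Psme1, of the proteasome activator PA28, fell in LLC (-0.66), KPC (-0.79), C26 (-0.86) and KPP (-1.15). In LLC muscle these differences had the opposite sign to those of the heavy chains: Psmb10 was at 7.40 and 6.35 CPM in LLC tumour muscle, against 14.8 and 12.8 CPM in controls, without overlap. Psmb8, another catalytic subunit, fell in KPC (-1.04) and KPP (-0.77) and was not called in LLC (0.79), KPCML1 (0.55) and C26 (-0.52). Psmb9, the last of the 3, fell in KPC (-1.91) and KPP (-1.95) and was not called in LLC (0.26), KPCML1 (0.44) and C26 (-0.61). Psmb8 lost its KPP call without KPP control 1 or either KPP tumour library, and Psmb9 without KPP control 1 or KPP tumour 2. Psmb9 was at 2.54 and 2.94 CPM in KPCML1 tumour muscle and 0.701 and 0.355 CPM in KPC tumour muscle, against 1.69 and 2.35 CPM in Matrigel controls, with both KPC libraries below the controls. Thop1, a peptidase that degrades cytosolic peptides, rose in LLC (0.70), KPC (0.67) and KPP (0.54). It was not called in LLC without any 1 of the 4 libraries, in KPC without KPC tumour 1 or either Matrigel control, or in KPP without KPP control 1 or KPP tumour 1. Without LLC control 1 or LLC tumour 2, 0 genes of this list were called in LLC, without Matrigel control 2, 0 in KPC, without C26 tumour 2 or C26 control 1, 0 in C26, and without KPP control 1, 1 lower in KPP.

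Of 8 genes of class I folding and loading, 1 was called higher in LLC, 0 in KPCML1, 3 in KPC, 6 in C26 and 4 in KPP, and none lower. The chaperones of the endoplasmic reticulum among them serve many secreted proteins besides class I. Canx (calnexin) rose in KPC (0.61), C26 (1.47) and KPP (1.14), Hspa5 (BiP) in KPC (0.97), C26 (0.85) and KPP (1.18), and Calr (calreticulin) in C26 (1.08) and KPP (0.98). The KPC call of Canx was lost without any 1 of the 4 libraries. Pdia6, a disulfide isomerase, rose in C26 (0.82). Ubqln1, which is not a chaperone of the endoplasmic reticulum, rose in LLC (0.89), KPC (0.97), C26 (0.64) and KPP (0.99). It was the 1 gene of the list called in LLC, and is part of the KPC, C26 and KPP counts. The KPP count was 4 without KPP control 1 too, the C26 count was 2 without C26 tumour 2 and 1 without C26 control 2, the LLC count was 1 without LLC tumour 1 and 0 without any other LLC library, and the KPC count was 0 without Matrigel control 2.

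Of 10 genes of class II processing, 2 were called higher and 0 lower in LLC, 2 and 0 in KPCML1, 3 and 1 in KPC, 3 and 1 in C26, and 3 and 2 in KPP. Ctsl, the lysosomal protease cathepsin L, rose in LLC (1.48), KPCML1 (1.25), KPC (2.04), C26 (2.58) and KPP (2.40), and Ctsd (cathepsin D) in LLC (0.74), KPC (0.83), C26 (1.15) and KPP (1.36); both also act in the lysosomes of myofibres. Ifi30, a lysosomal thiol reductase, rose in KPCML1 (2.34), KPC (2.70) and KPP (3.34), and Lgmn, a lysosomal endopeptidase, in C26 (0.68). Cd83, which keeps class II at the surface of dendritic cells, fell in KPC (-2.45), C26 (-2.44) and KPP (-2.62). Lgmn and Cd83 lost their C26 calls without any 1 of the 4 libraries. Cd83 lost its KPC call without KPC tumour 2 or either Matrigel control, and its KPP call without KPP control 1 or either KPP tumour library. The KPP count without KPP control 1 was 3 higher and 0 lower, without C26 tumour 2 the C26 count was 2 higher and 0 lower, and in LLC 0 were called without LLC tumour 2 or either LLC control. In KPCML1 the count was 1 without Matrigel control 1 and 0 without Matrigel control 2 or KPCML1 tumour 2. Ifi30 was at 7.60 and 40.3 CPM in KPCML1 tumour muscle, against 5.71 and 3.69 CPM in Matrigel controls, and kept its KPCML1 call in 1 of the 4 fits, the one without KPCML1 tumour 1.

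Of 18 transcription factors of MHC genes, 3 were called higher and 0 lower in LLC, 0 in either direction in KPCML1, 3 higher and 5 lower in KPC, 4 higher and 1 lower in C26, and 5 and 5 in KPP. Nfkb2 and Relb are the pair of the alternative NF-kB pathway; Nfkb2 rose in LLC (3.86), C26 (2.82) and KPP (1.57), and Relb in LLC (2.95), C26 (1.76) and KPP (0.85). Rela, of the canonical pathway, rose in LLC (1.61), KPC (0.88), C26 (0.87) and KPP (0.73). Relb and Rela lost their KPP calls without KPP control 1, and Nfkb2 kept its KPP call. Rela lost its C26 call without C26 tumour 2. Nfkb2 was at 63.4 and 101.5 CPM in LLC tumour muscle, against 5.10 and 6.24 CPM in controls, and 3 genes of this list were called higher in each of the 4 fits that left out 1 LLC library. Irf1, a direct activator of class I promoters, fell in KPC (-1.64) and KPP (-0.97) and was not called in LLC (0.35), KPCML1 (0.31) and C26 (-0.30). Its KPP call was lost without KPP control 1 or KPP tumour 1. Irf1 was at 9.61 and 8.87 CPM in KPCML1 tumour muscle and 2.5 and 2.27 CPM in KPC tumour muscle, against 7.68 and 7.23 CPM in Matrigel controls, with both KPC libraries below every other library of the experiment. Irf9, a factor of type I interferon signalling, fell in KPC (-1.29). Stat3, of interleukin-6 signalling, rose in KPC (1.48), C26 (1.87) and KPP (1.44). The KPP count without KPP control 1 was 2 higher and 1 lower, without Matrigel control 2 the KPC count was 0 higher and 3 lower, and without C26 control 2 the C26 count was 2 higher and 0 lower.

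Of 11 tested genes of interferon receptors and signalling, 1 was called higher and 2 lower in LLC, 1 and 1 in KPCML1, 1 and 2 in KPC, 2 and 1 in C26, and 2 and 3 in KPP. Socs1, an inhibitor of interferon signalling, fell in LLC (-2.44), KPCML1 (-2.57), KPC (-2.29) and KPP (-1.97). Ifngr1, the ligand-binding chain of the interferon-gamma receptor, rose in LLC (0.67) and KPCML1 (0.62). Ptpn2, a phosphatase of Jak and Stat proteins, rose in KPC (1.13), C26 (0.91) and KPP (1.31), and Socs3, an inhibitor of interleukin-6 signalling, in C26 (2.54) and KPP (3.03). Jak2 fell in KPC (-0.85) and KPP (-0.81), and Usp18, which dampens type I interferon signalling, in LLC (-1.38), C26 (-1.18) and KPP (-1.51). Without KPP control 1, Socs1, Socs3, Jak2 and Usp18 lost their KPP calls, and Ptpn2 kept its call. In KPP without control 1 the count was 1 higher and 0 lower, and without C26 tumour 2 or C26 control 1 the C26 count was 0. In LLC 0 were called without LLC control 1 or LLC tumour 2. In KPCML1 neither Socs1 nor Ifngr1 was called in any of the 4 fits that left out 1 library, and Usp18 was not in those of LLC or C26.

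**Figure D5:**
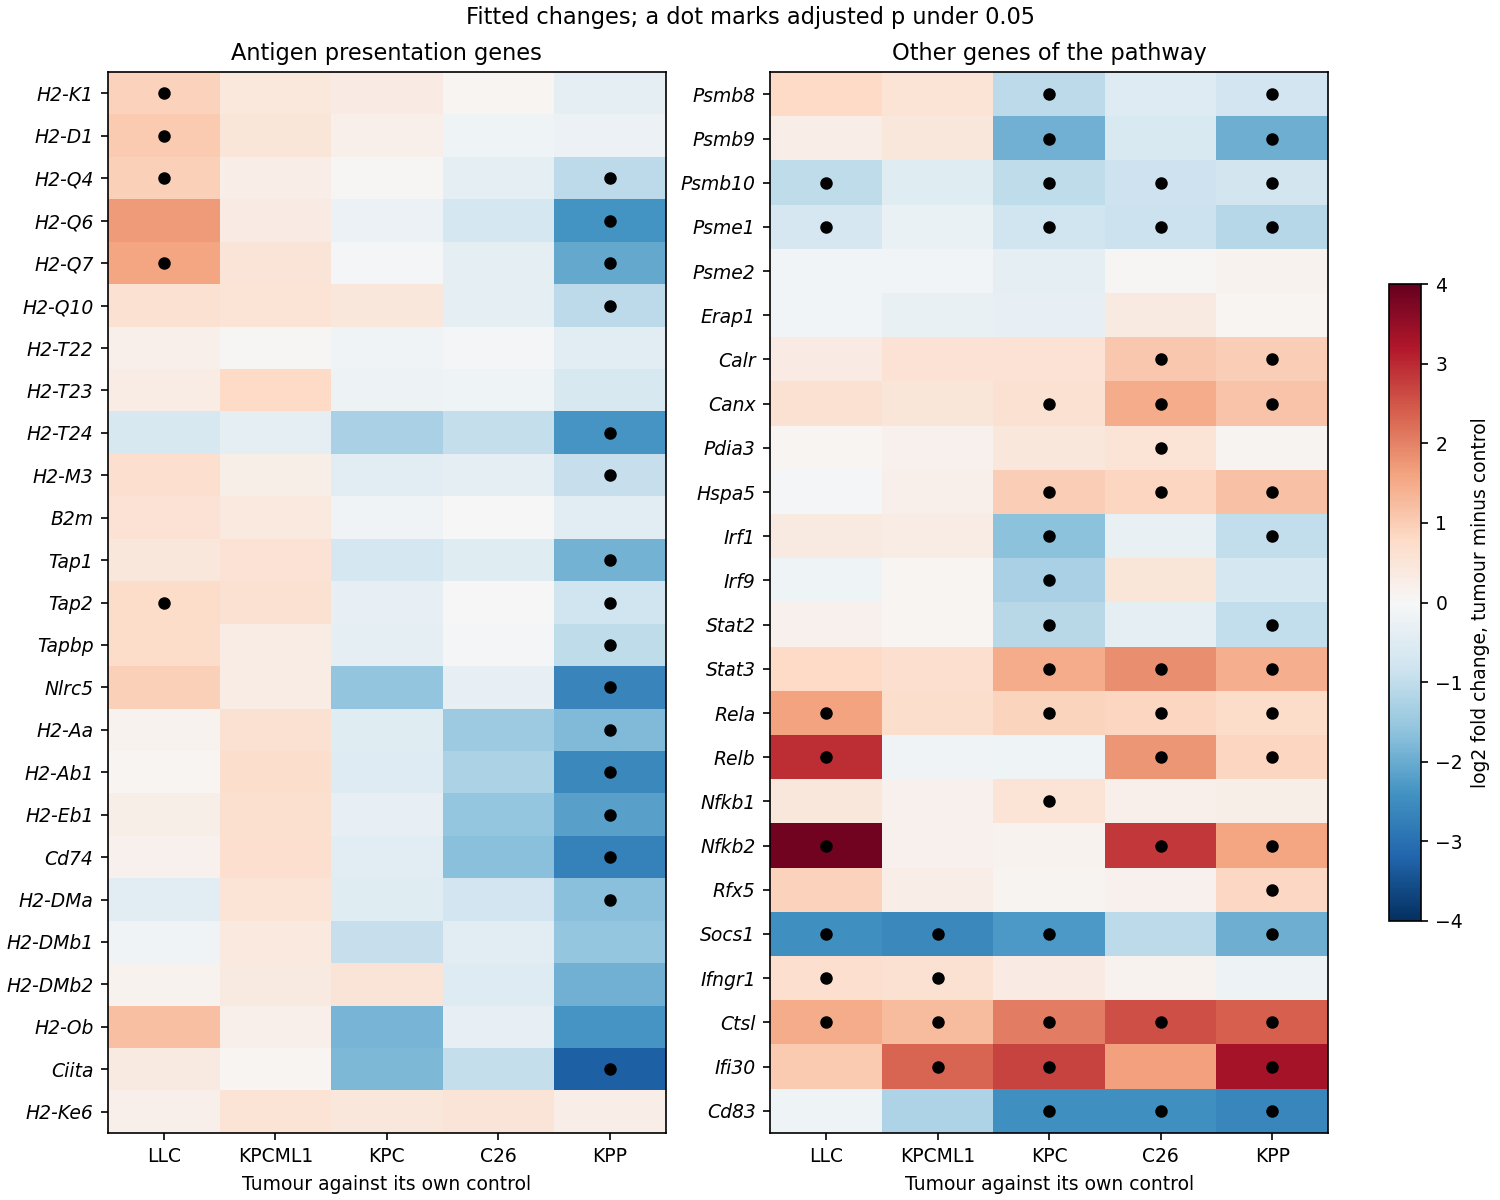
Fitted log2 fold change, tumour minus control, of 25 antigen presentation genes (left) and 24 other genes of the pathway (right) in the 5 models; a dot marks an adjusted p under 0.05. In LLC 5 class I rows carry a dot, in KPP 16 rows do, and C26, KPC and KPCML1 hold no dot on the left.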

How the data were processed

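The 18 RNA-seq libraries of tibialis anterior (TA) muscle fall into 9 groups of 2. Per the submitters' processing notes, the authors used bcl2fastq (2.20), FastQC, Salmon, DESeq2 and build mm10. Which release of Salmon and of the transcripts, and which strand setting, is not given in the sources used here. The deposited library files held estimated counts, not normalised, and TPM, which the authors' tool scales by transcript length within a library. The authors' deposited tables held a log2 fold change and its standard error, a p-value and an adjusted p-value, by DESeq2. The deposited table named 10K was not used, since no label gives such a group.

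Of 140825 transcripts, 139881 matched GENCODE M21 by identifier, and the other 944 held 0.416 to 0.693% of a library's fragments. The estimated counts were then added up within each gene and rounded to whole numbers. Totals were 22546541 to 36673780 per library; precision is limited by 2 libraries a group. edgeR (4.0.16, R 4.3.3) filtered genes with filterByExpr, scaled by TMM and fitted 1 model of 9 groups by quasi-likelihood (9 residual degrees of freedom, common dispersion 0.0539), since 4 libraries alone leave little to estimate the spread. P values were adjusted by Benjamini and Hochberg over 16089 genes, and genes under 0.05 were called. Summed levels are descriptions with no test. The fit was tested on simulated counts with changes between the LLC groups. Of 100 genes changed by 1 on the log2 scale in either direction, 22 were called. Of 100 genes changed by 2, 86 were called, and of 15889 unchanged genes, 6 were. Many changes of that smaller size were thus missed in the simulation. The simulation changed far fewer genes than the 1189 called higher and 1004 called lower in LLC. Its shares may not hold for these data.

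The members, gene lists and tests were chosen with earlier results of these data known. Values in every library are given for B2m, H2-K1, H2-D1, H2-Aa, Cd74, Tap1, Tap2, Tapbp, Nlrc5, Ciita and each other member called in any comparison or in the test among models. Of each list, up to 4 called genes of smallest p per comparison were named, and Irf1 and the immunoproteasome genes always; some listed genes are not reported here by name. Replicate numbers did not pair libraries across groups. Alternatives were relative log expression scaling, no filter, length-scaled counts, a replicate block, each experiment alone, DESeq2 (1.42.0), and each library left out. Figures were drawn with matplotlib (3.10.9).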

Additional observations from a re-analysis of the deposited data

Results flagged for a closer look

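The test of whether tumour effects differ among the 5 models passed the threshold for 7 of the genes followed here and for 8.32% of all tested genes. Its adjusted p (edgeR's quasi-likelihood test, Benjamini-Hochberg) was 0.0218 for Tap2, 0.0257 for Tapbp, 0.0367 for H2-Q4, 0.0368 for Tap1, 0.038 for H2-Q7, 0.0397 for H2-Q6 and 0.0464 for H2-T23. Of the genes named in the text outside the MHC set, it passed for Nfkb2 (0.00129), Relb (0.00568), Irf1 (0.00846), Psmb8 (0.0138), Irf9 (0.0271), Fcgrt (0.0337) and Psmb9 (0.0399), and for the dendritic cell markers Zbtb46 (0.0239) and Cd209a (0.0341).

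Of all tested genes, 8.29% were called in LLC minus KPP, 3.47% in KPCML1 minus KPP and 5.99% in KPCML1 minus KPC. Between LLC and KPP the tumour effects differed for 11 genes, each positive in LLC minus KPP. The adjusted p was 0.0119 for Tapbp, 0.012 for H2-Q4, 0.0121 for H2-Q7, 0.0124 for H2-Q6 and 0.0169 for Tap2. It was 0.0256 for Tap1, 0.0284 for H2-D1, 0.0287 for H2-K1, 0.0319 for Nlrc5, 0.0396 for B2m and 0.0455 for H2-Q10. Between KPCML1 and KPP they differed for 7 genes, with an adjusted p of 0.0368 for Tap1, 0.0393 for Tap2, 0.0396 for H2-DMa, 0.0443 for H2-T23, 0.0462 for Tapbp, 0.0462 for H2-Ab1 and 0.0486 for Cd74. Without KPP control 1, neither pair passed for any of these genes. Between KPCML1 and KPC tumour muscle 2 genes differed, Tap2 (0.0337) and H2-T23 (0.0384). Outside the set the adjusted p of this pair was 0.00562 for Irf1, 0.0121 for Psmb8, 0.0187 for Irf9, 0.0211 for Zbtb46, 0.0262 for Psmb9, 0.0337 for Fcgrt and 0.0345 for Mrc1.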

How the results depend on the processing

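The counts of called genes moved with the processing while no estimate of a called gene changed sign. LLC, with 5 calls (7.39% of all genes higher), gave 8 without the filter on low counts (5.57%), 2 with length-scaled counts (5.58%), 9 fitted alone (14.5%) and 8 by DESeq2 (9.9%), and 0 to 4 when 1 library was left out. KPCML1, with 0 (4.15% higher), gave 2 without the filter (3.93%) and 1 by DESeq2 (6.61%), and 0 without any 1 library. KPC, with 0 (13.7% lower), gave 1 without the filter (7.47%), 1 with length-scaled counts (10.8%) and 1 fitted alone (10.9%), and 0 to 1 when 1 library was left out. C26, with 0 (9.8% of all genes lower), gave 4 without the filter (6.72%) and 2 by DESeq2 (12.2%), and 0 to 5 when 1 library was left out. KPP, with 16 (19.3% lower), gave 7 fitted alone (11.5%), and 0 to 21 when 1 library was left out. The test among models, with 7 (8.32% of all genes), gave 17 without the filter (14.0%), 4 with length-scaled counts (5.27%) and 16 by DESeq2 (23.4%), and 0 to 16 when 1 library was left out. With a replicate block LLC gave 4 (7.12%), KPCML1 0, KPC 1 (13.6%), C26 3 (9.66%), KPP 16 (18.6%) and the test among models 7 (7.44%); the numbers do not pair libraries, since the correlation of deviations of same-numbered libraries was 0.00949 in LLC, 0.0932 in KPCML1, -0.0525 in KPC, -0.0755 in C26 and -0.174 in KPP. A crossed pairing of the KPP libraries, chosen after seeing the data, gave 15 calls as a block (19.2% of all genes lower). Of 225 alternative values of called genes, 156 kept their call and 69 lost it; of 1134 values of genes not called, 41 gained one. The cause of these differences was not tested, beyond the fewer libraries in a fit that leaves 1 out. Limits are the 2 libraries a group, the sequence that H2 genes share, which the authors' quantification may split between them, and bulk tissue, in which fewer cells and less RNA per cell cannot be told apart.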

Other observations

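Of 11 class I-like genes outside the H2 set, 6 were tested, and 3 were called in a comparison. Fcgrt, the neonatal Fc receptor that recycles immunoglobulin G and albumin and pairs with B2m, was at 19.3 and 24.8 CPM in KPP tumour muscle, against 39.8 and 43.2 CPM in controls, and fell by 0.91 on the log2 scale (SE 0.19, adjusted p = 0.00225). Procr, the endothelial protein C receptor, was at 4.5 and 1.67 CPM in KPP tumour muscle, against 8.14 and 6.99 CPM in controls, a log2 fold change of -1.31 ± 0.40 (adjusted p = 0.0196). The KPP tumour libraries lay below both controls for both genes, and for Fcgrt the 2 controls were close to each other. Fcgrt kept its call without any 1 of the 4 KPP libraries, and Procr lost its call without KPP control 1 or KPP tumour 2. Mr1, which presents vitamin B metabolites to MAIT cells, was at 23 and 14.3 CPM in KPCML1 tumour muscle and 21.8 and 17.2 CPM in KPC tumour muscle, against 30.2 and 30.8 CPM in Matrigel controls. It fell in KPC (log2 fold change -0.64 ± 0.22, adjusted p = 0.0410), and gave -0.70 ± 0.22 in KPCML1 (adjusted p = 0.0624). The KPC call of Mr1 was lost without Matrigel control 1, Matrigel control 2 or KPC tumour 2.

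Some H2 genes that are not annotated as protein-coding, and so lie outside the set, followed the strain. H2-Ea-ps, the E alpha gene that is known to be defective in the C57BL/6 haplotype, had 28 to 231 counts in the 4 CD2F1 libraries and 0 to 3 in the 14 C57BL/6 libraries. H2-Bl had 47 to 69 and 0 to 2, and H2-T-ps 79 to 117 and 0 to 4. The ratio of H2-Q6 to H2-Q7 was 1.04 to 1.58 in CD2F1 and 0.307 to 0.772 in C57BL/6 libraries.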
